A study of Arabidopsis thaliana with 6 samples.

Results

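Nitrate and ammonium assimilation genes were examined in germinated Arabidopsis seeds before and after re-establishment of desiccation tolerance. The genes were taken as a list of locus identifiers of the pathway, with no rule on measured values, though earlier results of these data were known when it was drawn up: the nitrate transporters NRT1.1 and NRT2.1, the nitrate reductases NIA1 and NIA2, the nitrite reductase NIR1, the glutamine synthetases GLN1;1 and GLN2, the glutamate synthase GLU1, and the glutamate dehydrogenases GDH1 and GDH2. All 10 were found among the 30509 genes of the array, and no filter on low values was applied. Seeds of the accession Col-0 had been cold stratified and germinated at 22 °C under constant white light to stage II, the protrusion of the radicle. Desiccation sensitive seeds (DS) were used without treatment. Desiccation tolerant seeds (DT) were incubated for 3 d in the dark at 22 °C in polyethylene glycol (PEG) at -2.5 MPa, which withdraws water osmotically, and rinsed. Each group had 3 biological replicates, each a pool of whole germinated seeds on 1 SNPtile array. PEG, darkness and the added days differed together between the groups and cannot be told apart.

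Plants take up nitrate through transporters of the NRT1 and NRT2 families. Nitrate reductase in the cytosol makes nitrite of it, and nitrite reductase in the plastid makes ammonium. Glutamine synthetase binds ammonium to glutamate and glutamate synthase passes the amide group on, so that glutamate is gained. Glutamate dehydrogenase mostly works the other way and releases ammonium from glutamate, which feeds carbon skeletons back into respiration when sugar is short. In seeds nitrate is also a signal that promotes germination, and the first nitrogen of the seedling comes from storage proteins.

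The values were log2 array signals after quantile normalization by the authors, and array medians lay between 4.76 and 4.78 in DS and between 4.72 and 4.73 in DT. Pairs of DS arrays correlated with 0.972 to 0.977, pairs of DT arrays with 0.957 to 0.975, and DS with DT arrays with 0.798 to 0.819. As a mark of signals near background, the 95th percentile of the mean signals of 3629 annotated pseudogenes, 4.96, is called the pseudogene level. All 5 genes taken as markers of the germinated seed had group means above it in DS and DT, but they did not stay level. GA3OX2, the gibberellin 3-oxidase of germination, fell from 6.53 ± 0.04 to 5.01 ± 0.05 (SD, n = 3; limma, adjusted p = 8.23e-07), PCK1 fell by 0.27 and the expansin gene EXPA2 rose by 0.54. ICL, the isocitrate lyase of reserve mobilisation, was at 8.71 ± 0.04 and 8.83 ± 0.06, and ICL and MLS did not pass the test. Gene positions below are those of the TAIR10.1 assembly.

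Transcripts of the pathway were mostly less abundant in DT. Of the 10 genes, 8 fell and 1 rose at an adjusted p of at most 0.05 (limma, Benjamini-Hochberg over all genes), and NRT2.1 did not pass. Over all genes 29.9% passed that threshold, 19.9% downwards and 9.97% upwards, or 6085 and 3043 genes. These numbers became 5226 and 4052 with arrays centred on their medians, and 5026 and 4484 with quantile normalization repeated. Among the genes with a mean signal above the pseudogene level 59.2% passed, 38.2% downwards and 21% upwards, and 7 of the 10 had such a signal, of which 6 fell and 1 rose. The median log2 fold change of the 10 genes was -0.56, beside -0.02 over all genes and -0.09 over those above the pseudogene level. A stricter filter kept genes that changed by 1 or more on the log2 scale with an unadjusted limma p up to 0.05. It was passed by 2.22% of all genes, 1.36% downwards and 0.862% upwards, and by 2 of the 10 genes: NRT1.1 and GLN1;1, both downwards. The DT and DS arrays did not overlap in 9 of the 10 genes, 8 lower and 1 higher in DT, beside 42.4% of all genes, 27% lower and 15.5% higher. In these bulk samples, fewer cells that express a gene and less RNA per cell cannot be told apart.

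**Figure D1:**
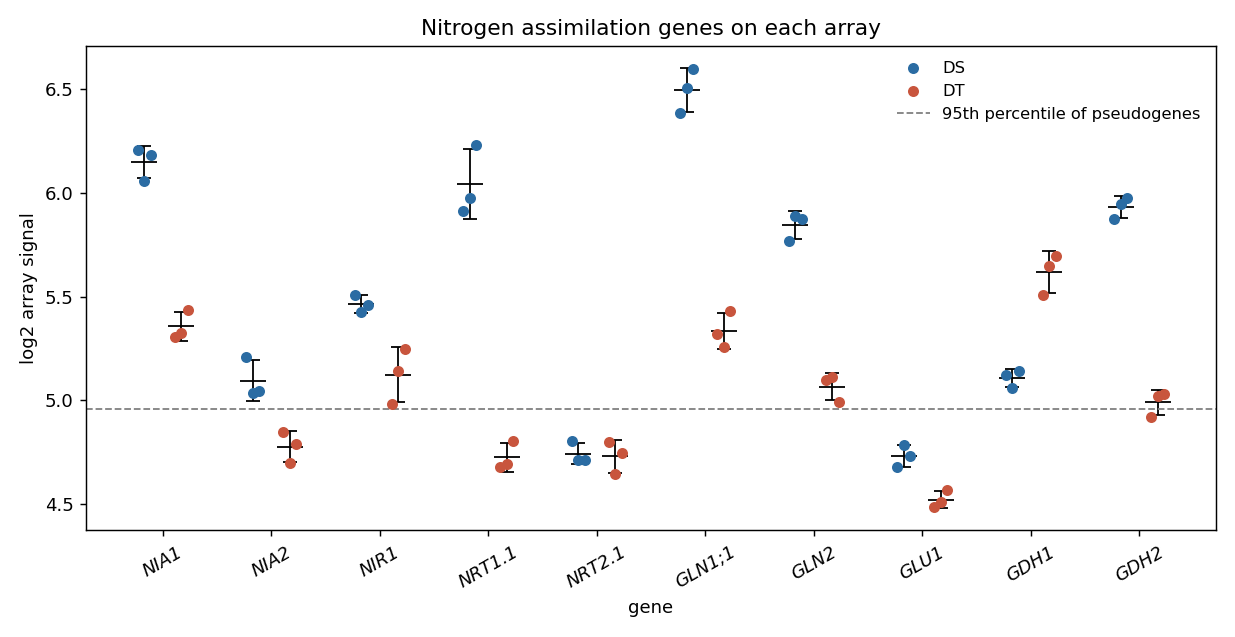
Log2 array signal (vertical axis) of the 10 genes (horizontal axis) on each of 3 DS (blue) and 3 DT (red) arrays, with the mean and SD in black and the pseudogene level of 4.96 as a dashed line. The DT points lie below the DS points in 8 genes, above them in GDH1, and overlap with them in NRT2.1.

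**Figure D2:**
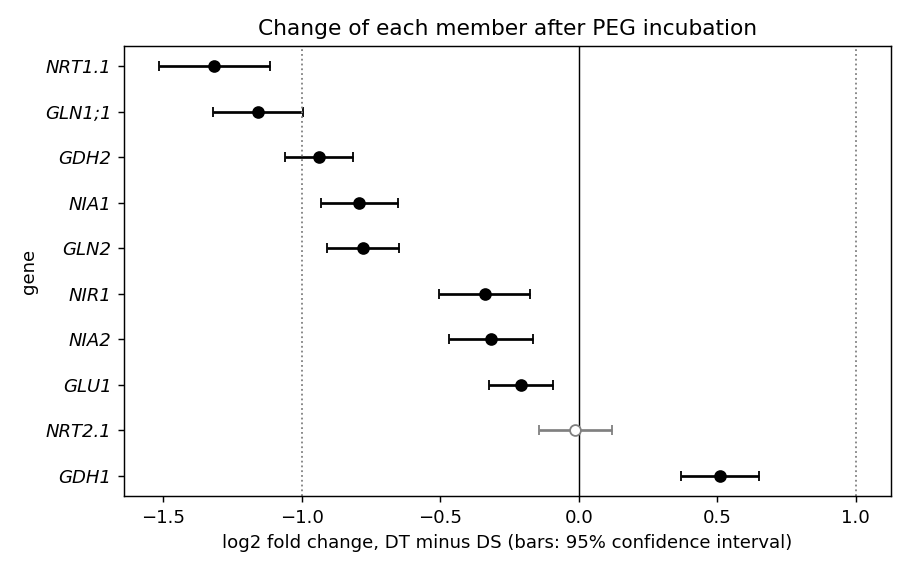
Log2 fold change, DT minus DS (horizontal axis), of each of the 10 genes (vertical axis) with its 95% confidence interval from limma, n = 3 arrays per group. Filled points passed an adjusted p of 0.05, the open point (NRT2.1) did not, and dotted lines mark changes of 1 in size. The changes run from -1.32 for NRT1.1 to 0.51 for GDH1.

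Of the nitrate transporters NRT1.1 fell and NRT2.1 did not pass the test. NRT1.1 (AT1G12110, chromosome 1 from 4105223 to 4109601, 5 exons) encodes a transporter that works at both low and high nitrate and is also a nitrate sensor. Its signal was 5.91, 5.98 and 6.23 in DS and 4.68, 4.69 and 4.81 in DT. All DT arrays lay far below the DS arrays and under the pseudogene level, which the DS arrays exceeded. The log2 fold change was -1.32 (SE 0.086, limma, adjusted p = 2.1e-05), the largest measured fall of the 10 genes. Where DT signals lie in the range of pseudogenes, as here, the measured fall may be smaller than the true one.

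NRT2.1 (AT1G08090, chromosome 1 from 2524023 to 2526322, 3 exons) encodes the main high-affinity nitrate transporter of roots. Its signal was 4.80, 4.71 and 4.72 in DS and 4.80, 4.64 and 4.75 in DT. The groups overlapped, and no change was detected. All 6 values were below the pseudogene level, where a change may be understated. The log2 fold change was -0.01, with a 95% confidence interval from -0.14 to 0.12 (limma, adjusted p = 0.903). Of its 25-base stretches, the length of an Affymetrix probe, 17.9% also occur elsewhere in the genome, most of them in the neighbouring NRT2.2 (AT1G08100), and NRT2.2 had a log2 fold change of -0.04 (limma, adjusted p = 0.691). NRT3.1, the partner protein that NRT2.1 needs for transport, was named after its values were seen and had a log2 fold change of -0.27 that did not pass (limma, adjusted p = 0.0635). With NRT2.1 below the pseudogene level throughout, the difference between both transporters restates the change of NRT1.1 and compares nothing further.

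Transcripts for both steps of nitrate reduction were lower in DT. NIA1 (AT1G77760, chromosome 1 from 29235721 to 29239484, 4 exons) gave 6.21, 6.06 and 6.18 in DS and 5.31, 5.33 and 5.44 in DT. The lowest DS array was above the highest DT array by more than the spread within either group, and the log2 fold change was -0.79 (SE 0.060, limma, adjusted p = 4.11e-05). NIA2 (AT1G37130, chromosome 1 from 14158452 to 14161938, 3 exons) encodes the isoform that carries most of the activity in shoots. Its signal was 5.21, 5.03 and 5.04 in DS and 4.85, 4.70 and 4.79 in DT, with all DT arrays under the pseudogene level. The log2 fold change was -0.32 (SE 0.066, limma, adjusted p = 0.00727).

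NIA1 and NIA2 had coding sequences of 2754 bases each, with 74.1% identity over the aligned bases and no identical run longer than 20 bases, and none of their 25-base stretches was found elsewhere in the genome. The most alike 60 bases of both coding sequences, each within a single exon, are shown because they are where signals of the genes could most easily mix. In RefSeq's TAIR10.1 they lie at chr1:29238175-29238234 (minus strand) for NIA1 and at chr1:14159849-14159908 (plus strand) for NIA2, and the capitals mark the 6 bases that differ.
NIA1: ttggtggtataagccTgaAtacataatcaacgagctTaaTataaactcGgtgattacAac
NIA2: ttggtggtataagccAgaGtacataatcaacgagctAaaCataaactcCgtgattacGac
Within each array the NIA1 signal minus the NIA2 signal went from 1.05 in DS to 0.58 in DT, a difference of -0.47 (SE 0.073). NIA2 was near the pseudogene level in DS and under it in DT, which left it little room to fall, so this does not show that NIA1 fell by more. The two-sided exact permutation p was 0.1, the smallest that 3 arrays against 3 allow, as for each of the 5 pairs of genes compared, before and after adjustment over them.

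NIR1 (AT2G15620, chromosome 2 from 6810395 to 6812941, 4 exons) encodes the nitrite reductase of the plastid. It was at 5.51, 5.42 and 5.46 in DS and at 4.98, 5.14 and 5.25 in DT. The DT arrays were lower and more spread, with an SD of 0.133 against 0.043 in DS, and did not overlap with DS. The log2 fold change was -0.34 (SE 0.071, limma, adjusted p = 0.00782), and with an unmoderated variance the adjusted p was 0.0544. NIA1 minus NIR1 changed by -0.45 (SE 0.052, exact permutation p = 0.1). NIR1 came near the pseudogene level in DT, which left it less room to fall, so this does not show that NIA1 fell by more.

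Of the genes that build ammonium into amino acids, GLN1;1, GLN2 and GLU1 fell. GLN1;1 (AT5G37600, chromosome 5 from 14933286 to 14935885, 9 exons), listed as GSR 1 in the annotation, encodes a cytosolic glutamine synthetase of high affinity for ammonium. Its signal was 6.38, 6.51 and 6.60 in DS and 5.32, 5.26 and 5.43 in DT. No DT array came near the DS arrays, and all values stayed above the pseudogene level. The log2 fold change was -1.16 (SE 0.070, limma, adjusted p = 1.42e-05). Its transcript shares 1.47% of 25-base stretches with other loci, mostly the cytosolic isoform GLN1;2, which fell too.

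GLN2 (AT5G35630, chromosome 5 from 13830429 to 13833542, 11 exons), listed as GS2, encodes the plastid glutamine synthetase, which in leaves takes up the ammonium of photorespiration. It gave 5.77, 5.89 and 5.88 in DS and 5.10, 5.11 and 4.99 in DT. The DT arrays were close to the pseudogene level and clearly below DS, and the log2 fold change was -0.78 (SE 0.056, limma, adjusted p = 3.31e-05). GLN1;1 minus GLN2 changed by -0.38 (SE 0.094, exact permutation p = 0.1). Without DS replicate 1, 2 or 3 the exact permutation p was 0.2. The nearness of GLN2 to the pseudogene level in DT left it less room to fall, so this does not show that the cytosolic gene fell by more.

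GLU1 (AT5G04140, chromosome 5 from 1129785 to 1138488, 32 exons) encodes the ferredoxin-dependent glutamate synthase of leaves. Its signal was 4.68, 4.78 and 4.73 in DS and 4.49, 4.51 and 4.57 in DT, all below the pseudogene level. The DT arrays lay just below the DS arrays. The log2 fold change was -0.21 (SE 0.050, limma, adjusted p = 0.0138), and without DS replicate 2 it was -0.18 with an adjusted p of 0.0588 from limma. At its end GLU1 overlaps by 79 bases with BHLH101 (AT5G04150) on the opposite strand, and BHLH101 fell by 0.83 (limma, adjusted p = 4.15e-05). Whether the array values keep the strands apart is not given in the sources used here, and the part of this overlap in the GLU1 value was not tested.

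The glutamate dehydrogenase genes moved in opposite directions. GDH1 (AT5G18170, chromosome 5 from 6006035 to 6008726, 9 exons) was at 5.12, 5.06 and 5.14 in DS and at 5.51, 5.65 and 5.70 in DT. It was the only one of the 10 genes to rise, with all DT arrays above all DS arrays and a log2 fold change of 0.51 (SE 0.061, limma, adjusted p = 0.000445). GDH2 (AT5G07440, chromosome 5 from 2355759 to 2358241, 7 exons) was at 5.87, 5.94 and 5.97 in DS and at 4.92, 5.02 and 5.03 in DT. Its DT arrays were around the pseudogene level, and the log2 fold change was -0.94 (SE 0.053, limma, adjusted p = 1e-05).

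Both genes encode subunits of the mitochondrial enzyme, which forms hexamers of the subunits in varying proportion. GDH1 minus GDH2 was -0.75, -0.89 and -0.83 in DS and 0.59, 0.63 and 0.67 in DT. The difference was thus negative on all DS arrays and positive on all DT arrays, and its change of 1.45 (SE 0.047) was the largest of the 5 pairs (exact permutation p = 0.1, the smallest possible). Levels of different genes are not comparable on the array, so this shows unequal change and not which subunit was more abundant.

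**Figure D3:**
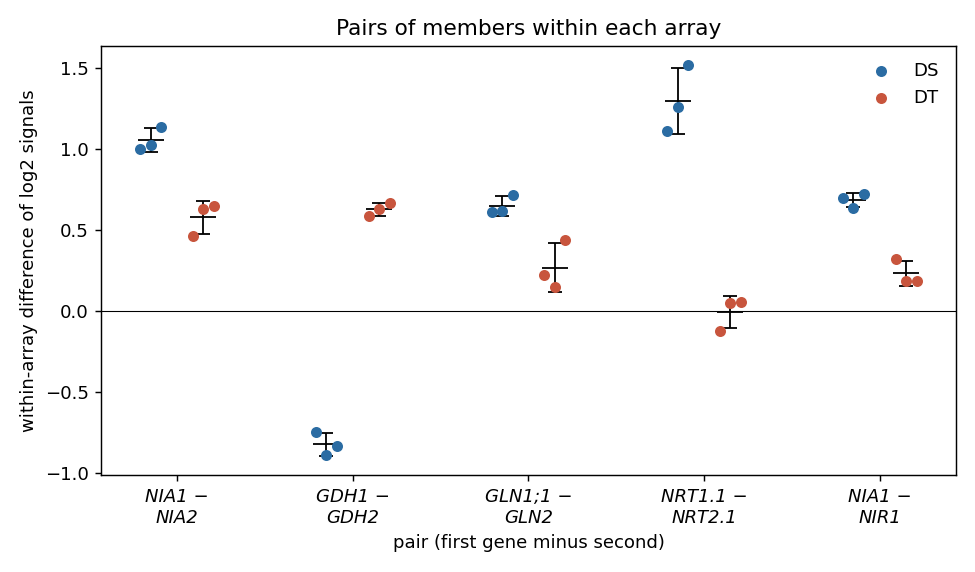
Within-array difference of the log2 signals of a pair of genes, first minus second (vertical axis), for 5 pairs (horizontal axis) on 3 DS (blue) and 3 DT (red) arrays, with mean and SD in black. The GDH1 minus GDH2 points move from below 0 in DS to above 0 in DT, and the points of the other 4 pairs lie lower in DT, with NRT2.1 below the pseudogene level in both groups and NIA2 below it in DT.

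The coding sequences of GDH1 and GDH2 are 1236 bases each and 74.5% identical, with 1 identical run of 41 bases, longer than a probe. The most alike 60 bases within an exon, which end at an exon border and hold most of that run, are shown because probes there could read both genes, which was not tested. Capitals mark the 6 bases that differ, and the stretches lie at chr5:6006572-6006631 for GDH1 and chr5:2356416-2356475 for GDH2 in RefSeq's TAIR10.1, both on the plus strand.
GDH1: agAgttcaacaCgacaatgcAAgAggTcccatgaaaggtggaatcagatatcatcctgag
GDH2: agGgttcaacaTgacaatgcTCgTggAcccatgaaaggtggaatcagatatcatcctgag
In all, 4.05% of the 25-base stretches of GDH1 and 4.69% of those of GDH2 occur elsewhere in the genome, with GDH3 and the locus AT1G42490 sharing most. GDH3, also a glutamate dehydrogenase gene, was below the pseudogene level with a log2 fold change of 0.09 (limma, adjusted p = 0.178). GDH1 also overlaps by 166 bases with AT5G18180 on the opposite strand, which had a log2 fold change of 0.12 (limma, adjusted p = 0.338).

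The 250 bases before the annotated start of both genes are shown because the genes moved apart. They lie at chr5:6005785-6006034 for GDH1 and chr5:2355509-2355758 for GDH2 in the same assembly, both on the plus strand, and capitals mark motifs that were found.
GDH1: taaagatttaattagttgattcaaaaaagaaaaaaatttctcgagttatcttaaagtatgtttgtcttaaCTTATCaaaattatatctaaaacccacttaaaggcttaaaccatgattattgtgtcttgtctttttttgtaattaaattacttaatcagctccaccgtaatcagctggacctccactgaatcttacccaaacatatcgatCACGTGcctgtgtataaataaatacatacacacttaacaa
GDH2: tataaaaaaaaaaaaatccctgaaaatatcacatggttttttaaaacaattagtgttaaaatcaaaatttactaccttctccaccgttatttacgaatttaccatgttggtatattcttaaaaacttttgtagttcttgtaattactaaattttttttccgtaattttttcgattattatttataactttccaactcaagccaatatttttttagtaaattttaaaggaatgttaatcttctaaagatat
Both strands were searched for the G-box (CACGTG), bound by bZIP and bHLH factors, for ABA-responsive forms (ACGTGTC and ACGTGGC, which can overlap with a G-box), for the I-box of light-regulated genes (GATAAG), for the first part of the nitrate-responsive element (TGACCCTT and TGACTCTT) and for ACTCAT, a site of bZIP factors in genes that respond to low osmolarity. GDH1 held a G-box 40 bases before its start and an I-box on the opposite strand 180 bases before it. GDH2 held none of these letters. Among the 10 genes the G-box was found in GDH1 alone, beside 6.49% of 27443 protein-coding genes. Whether any motif searched for bears on the changes of the genes was not tested.

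Over all such genes the I-box was found in 12.3%, ACTCAT in 12.3%, and ACGTGTC and ACGTGGC in 3.68% and 3.37%. The I-box also occurred in NRT2.1, and ACTCAT in NIA1, 15 bases before the start, and in NRT1.1, 128 bases before it. None of the 10 held either form of the first part of the nitrate-responsive element in this window. Over all such genes TGACCCTT was found in 0.426% and TGACTCTT in 1.32%. The whole element was not searched for. The other members that fell held none of the motifs.

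**Figure D4:**
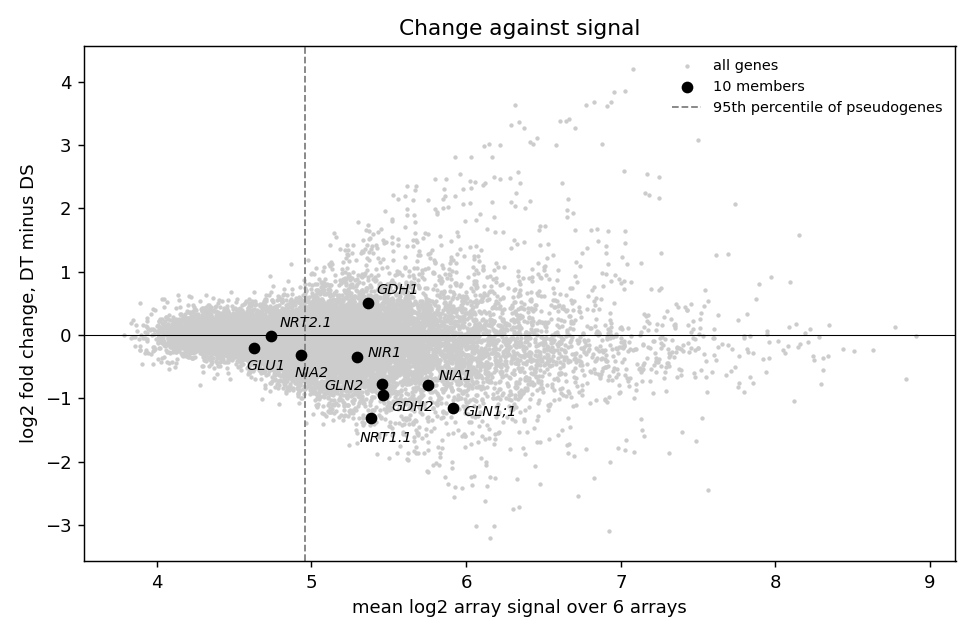
Log2 fold change, DT minus DS (vertical axis), against mean log2 signal over 6 arrays (horizontal axis) for all 30509 genes (grey) and the 10 assimilation genes (black). NRT2.1, GLU1 and NIA2 lie left of the pseudogene level of 4.96 (dashed), and NRT1.1 lies lowest of the 10.

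The mean signals of NRT2.1, GLU1 and NIA2 were below the pseudogene level and those of the other 7 above it. The SD between replicates ran from 0.043 for NIR1 to 0.169 for NRT1.1 in DS, where the median of all genes was 0.062, and from 0.041 for GLU1 to 0.133 for NIR1 in DT, where that median was 0.070. In order of change, the confidence intervals of NRT1.1 and GLN1;1 overlapped, as did those of GLN1;1 and GDH2, of GDH2, NIA1 and GLN2, of NIR1, NIA2 and GLU1, and of GLU1 and NRT2.1. NIR1 was apart from GLN2, whose interval ended at -0.65 while that of NIR1 began at -0.51.

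The genes whose 6 values followed NRT1.1 most closely, by root mean square distance of values centred on the gene's mean, were sks4 (AT4G22010, distance 0.036), the aquaporin gene NLM1 (AT4G19030, distance 0.052) and AT1G27330 (distance 0.054). For GDH1 they were AT1G19397 (distance 0.019), NFU2 (AT5G49940, distance 0.019), a scaffold of iron-sulfur cluster assembly, and AT5G52820 (distance 0.020). With 2 conditions and 6 arrays, this likeness describes mainly the size of the difference between DT and DS.

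A further 73 genes of nitrogen transport, metabolism and regulation were taken as a comparison. Of these 28 fell and 11 rose by the limma threshold above, or 26 and 17 with quantile normalization repeated, and the median log2 fold change was -0.07. Over all genes 19.9% fell and 9.97% rose. Of the 73, 40 had a mean signal above the pseudogene level, and 17 of these fell and 8 rose, beside 38.2% and 21% of all such genes. The stricter filter kept 3 that fell and 0 that rose, beside 1.36% and 0.862% of all genes.

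**Figure D5:**
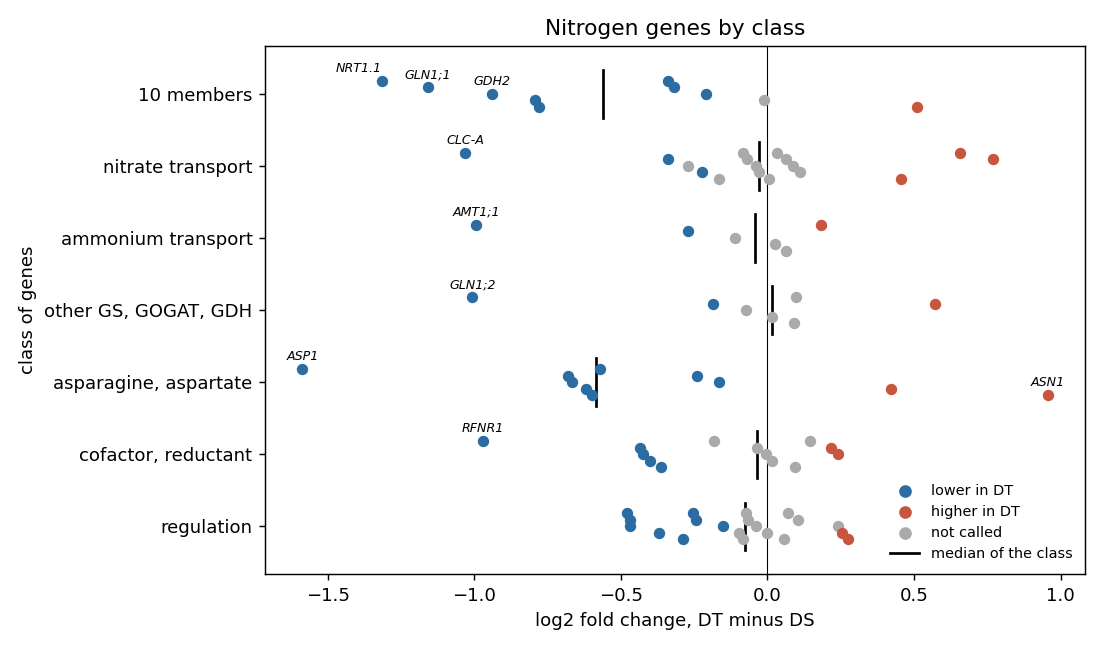
Log2 fold change, DT minus DS (horizontal axis), of the 10 assimilation genes and 73 other nitrogen genes by class (vertical axis), coloured by the call at an adjusted limma p of 0.05, with the class median as a black line. The medians of the 10 genes and of the asparagine and aspartate class lie at -0.56 and -0.59, and the medians of the other classes lie between -0.08 and 0.01.

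Among 17 other nitrate transporters and channels, 3 fell, 3 rose and 11 did not pass, where 19.9% of all genes fell and 9.97% rose. Of the 17, 7 had a mean signal above the pseudogene level, and 1 of these fell and 3 rose, beside 38.2% and 21% of all such genes. CLC-A (AT5G40890), which loads nitrate into the vacuole, was at 5.64, 5.67 and 5.82 in DS and at 4.66, 4.69 and 4.69 in DT, a log2 fold change of -1.03 (limma, adjusted p = 1.04e-05) that was -0.97 without DS replicate 3. Its DT arrays lay under the pseudogene level. NRT1.7 (AT1G69870), which loads nitrate into the phloem of source leaves, had the largest rise of the class, from 5.57 to 6.34 in the mean, by 0.77 (limma, adjusted p = 1.07e-05). The other called genes, named after their values were seen, were NRT1.8 (0.66) and NRT2.6 (0.46) upwards. Downwards, both with mean signals below the pseudogene level and also named after their values were seen, were CLC-B (-0.34) and NRT1.4 (AT2G26690, -0.22), for which RefSeq lists the synonym NPF6.2. The last was not called without DS replicate 2, without DS replicate 3 or without DT replicate 3, where the adjusted limma p was 0.0549, 0.0551 and 0.0531. NRT2.7, the vacuolar nitrate carrier of seeds and also named after its values were seen, was at 6.32, 6.33 and 6.38 in DS and at 6.11, 6.14 and 6.29 in DT (limma, adjusted p = 0.076).

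Of 6 ammonium transporters 2 fell and 1 rose, beside 19.9% and 9.97% of all genes. Only 2 of the 6 had a mean signal above the pseudogene level, and of these 1 fell and 0 rose. AMT1;1 (AT4G13510), an uptake carrier of roots, was at 6.15, 6.06 and 6.00 in DS and at 5.08, 5.07 and 5.09 in DT. The DT arrays were nearly identical and well below DS, with a log2 fold change of -0.99 (SE 0.051, limma, adjusted p = 7e-06). The rise was that of AMT1;5 (AT3G24290), by 0.18 (limma, adjusted p = 0.0394). It was lost when any of DS replicates 1, 2 and 3 or DT replicates 1 and 2 was left out, with adjusted limma p-values from 0.0509 to 0.123.

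The remaining 7 glutamine synthetase, glutamate synthase and glutamate dehydrogenase genes held 2 that fell and 1 that rose. These calls were among the 4 with a mean signal above the pseudogene level, where 38.2% of all genes fell and 21% rose. GLN1;2 (AT1G66200), listed as GSR2, fell from 5.86 ± 0.08 to 4.85 ± 0.11 (SD, n = 3), by 1.01 (limma, adjusted p = 2.67e-05). Its fall was under 1 without DS replicate 2 (-0.98), DS replicate 3 (-0.99) or DT replicate 1 (-0.94). GLN1;3, named after its values were seen, had the other fall (-0.19), and this call was lost when any array but DT replicate 2 was left out, with adjusted limma p-values of up to 0.129. GLN1;5 (AT1G48470) rose from 5.06 ± 0.03 to 5.63 ± 0.09, by 0.57 (limma, adjusted p = 0.000189). The cytosolic glutamine synthetase genes thus changed in both directions. The other glutamate synthase genes, named after their values were seen, did not pass: GLU2 had a log2 fold change of -0.07 (limma, adjusted p = 0.307) and the NADH-dependent GLT1 one of 0.10 (limma, adjusted p = 0.169).

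All 10 genes of asparagine and aspartate metabolism passed the threshold, 8 downwards and 2 upwards, with a median of -0.59. Of these, 9 had a mean signal above the pseudogene level, where 59.2% of all genes passed. ASP1 (AT2G30970), the mitochondrial aspartate aminotransferase, was at 7.41, 7.36 and 7.40 in DS and at 5.93, 5.70 and 5.78 in DT, the largest fall of the 73 genes (-1.59, limma, adjusted p = 2.39e-06). ASN1 (AT3G47340), an asparagine synthetase that is induced in the dark and stores nitrogen in a carbon-sparing form, was at 4.49, 4.59 and 4.53 in DS and at 5.55, 5.45 and 5.49 in DT. All DS arrays were below and all DT arrays above the pseudogene level, and it had the largest rise of the 73, by 0.96 (limma, adjusted p = 7.16e-06). The asparagine synthetases ASN2 (-0.60) and ASN3 (-0.67), named after their values were seen, fell. Also chosen after their values were seen, ASPGA1 was not called without DS replicate 2 or 3 or DT replicate 1 or 3 (adjusted limma p up to 0.0721), nor ASP4 without DS replicate 2 or 3 or DT replicate 2 or 3 (up to 0.122).

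Of 13 genes of cofactors and reducing power, 5 fell and 2 rose. A mean signal above the pseudogene level was found for 12, of which 4 fell and 2 rose, beside 38.2% and 21% of all such genes. RFNR1 (AT4G05390), the ferredoxin reductase that supplies electrons to nitrite reduction in non-green plastids, fell by 0.97 (limma, adjusted p = 9.4e-06). CNX1 (AT5G20990), which inserts molybdenum into the cofactor of nitrate reductase, rose by 0.24 (limma, adjusted p = 0.0097). Of 20 regulators 8 fell and 2 rose, beside 19.9% and 9.97% of all genes, and none changed by more than 0.48 in size. Only 6 of the 20 had a mean signal above the pseudogene level, and of these 2 fell and 0 rose. GLB1 (AT4G01900), a plastid PII protein, had the largest fall (-0.48, limma, adjusted p = 0.00023), and NLP9 (AT3G59580), of the family of nitrate-binding NIN-like factors, the largest rise (0.28, limma, adjusted p = 0.00343). Of the remaining calls in both classes, named after their values were seen, that of TGA4 was lost whichever array was left out (adjusted limma p 0.0518 to 0.112), that of CNX2 without any but DT replicate 1 (up to 0.105), that of TGA1 without DS replicate 1 or 2 (up to 0.0821) and that of LBD39 without DS replicate 1 or DT replicate 2 (up to 0.0541).

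Light differed between the groups, and 8 genes named for their induction in the dark were read beside these results. ASN1, described above, rose. DIN10 (AT5G20250) fell from 6.51, 6.57 and 6.72 to 5.27, 4.74 and 4.72 (-1.69, limma, adjusted p = 7.42e-05), with DT replicate 1 above the other DT arrays, and DIN9 (AT1G67070) fell by 0.46 (limma, adjusted p = 0.00153). The remaining 5 did not pass, with log2 fold changes of 0.00 for DIN1, -0.02 for DIN2, 0.08 for DIN3, -0.17 for DIN4 and 0.12 for DIN11. Thus 2 of the 8 fell and 1 rose, beside 19.9% and 9.97% of all genes. Mean signals were below the pseudogene level for DIN2, DIN3, DIN4, DIN9 and DIN11, and above it only for ASN1, DIN1 and DIN10. The list as a whole had a median of -0.01, and the part of darkness in the changes of the assimilation genes was not tested.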

How the data were processed

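RNA of 3 DS and 3 DT pools of germinated seeds was labelled from an oligo(dT) primer and hybridized to SNPtile arrays of Affymetrix. In R, with an annotation based on TAIR9, the authors took out the probe signals and quantile normalized them, and the deposited table holds a log2 value for each gene (30509 genes; the base of the logarithm was read from the range of the values). How probes were combined and how background was handled is not given in the sources used here. If background remained in the values, log2 fold changes understate changes of dim genes.

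DT was compared with DS on the deposited values in R 4.3.3 with limma 3.58.1 by lmFit and eBayes (two-sided; 3.71 prior degrees of freedom) without covariates, with Benjamini-Hochberg adjustment over all genes. Checked on simulated data, the fit recovered known changes. Loci were matched to RefSeq's TAIR10.1 (30078 matched), and sequences were read from it with Python 3.11.15 and Biopython 1.88. Differences of pairs of genes were tested by exact permutation. The small number of arrays sets the precision. Named beside the 10 genes are, per class of the comparison list, genes past the fold change filter and the largest called rise and fall, all dark-induced genes, and 3 genes nearest in pattern to the largest rise and fall among the 10. Exceptions are marked as named after their values were seen. The genes and lists were chosen with earlier results of these data known. Other call rules, variance models and scalings were tried, as were the removal of dim genes, a replicate block and the removal of each array.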

Additional observations from a re-analysis of the deposited data

How the results depend on the processing

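For pairs only the direction could change under the alternatives, since their exact permutation p cannot reach 0.05 with so few arrays. With other variance models and a replicate block only the side of the threshold could change, since the log2 fold change stays as it was. Within these limits, 144 of 150 values of single genes and pairs kept their direction and side of the threshold. The exceptions were NIR1, whose change of -0.34 had an adjusted p of 0.0544 with an unmoderated variance, GLU1, whose change ranged from -0.236 to -0.183 when single arrays were left out and lost its call without DS replicate 2, and NRT2.1, which was 0.0295 after centring of the arrays on their medians, 0.0307 after a repeated quantile normalization, and -0.0475 to 0.0301 when single arrays were left out. Over the alternatives other than leaving out an array, the adjusted p of NIR1 was lowest at 0.00681 (limma, intensity trend in the variance prior). It was highest at 0.0544 (ordinary t-test, unmoderated variance). With the fold change filter, the calls were 2 lower and 0 higher among the 10 genes, 3 and 0 among the 73 others, and 415 and 263 among all genes, in place of 6085 and 3043. The higher calls among the 73 numbered 7 with an unmoderated variance and 17 with quantile normalization repeated, in place of 11. Between 7 and 8 of the 10 genes were called lower when single arrays were left out. Same-numbered DS and DT arrays deviated together with correlations of 0.061, -0.010 and 0.104, and differently numbered arrays with -0.133 to 0.073. Whether same-numbered samples were grown or handled together is not given by the labels and cannot be told from so few arrays. A replicate block called 8 of the 10 lower and 1 higher, with 5944 and 2958 over all genes. Signals near the pseudogene level limit what can be said of NRT2.1, GLU1 and NIA2.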
